A study of Homo sapiens with 6 samples.

Results

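The genes of the cytosolic ribosomal proteins were described in RNA sequencing of Hey and SKOV3, a pair of established cell lines from human ovarian cancer. A gene was counted as a member when its symbol was RPL or RPS followed by digits, with an optional A, X, L, AL or L1 ending, or RPSA, RPLP0, RPLP1 or RPLP2. The rule used symbols and no measured value, and it left out pseudogenes. It found 85 of the 59008 gene symbols in the table. These were 43 genes of the large subunit, 31 of the small subunit, 3 of the P-stalk and 8 paralogs, which are near copies of a ribosomal protein gene. FAU, which encodes a ribosomal protein fused to a ubiquitin-like protein, lies outside the rule.

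The 6 libraries were 1 each of parental cells, polyploid giant cancer cells (PGCCs) and daughter cells in each line. Parental cells were untreated. PGCCs are enlarged cells that survive after a drug blocks division, and here they followed 500 nM of the microtubule drug paclitaxel for 16 h and recovery for 3 days. The title of the SKOV3 PGCC library gives day 7 instead, while its treatment label gives 3 days. Daughter cells had the same dose and 30 days of recovery, and each daughter library is 1 clone by its title. All cells were grown in 10% fetal bovine serum, and the Hey and SKOV3 lines were kept in different media. With 1 library per condition a difference has no replicate check, values carry no error and no p-value was computed within a line.

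Values are transcripts per 1000000 (TPM), a share of the transcript pool that is corrected for transcript length, so levels can be compared between genes. The study gives a range of mapped reads per library, but reads per gene cannot be had from the deposited columns, and counting error is therefore not given. The columns summed to between 911825 and 920497 TPM. Mitochondrial transcripts took between 2.64% (Hey parental cells) and 14.8% (SKOV3 daughter cells) of them. The 6 epithelial marker genes summed to between 1036 and 3161 TPM, the 6 fibroblast markers to between 0.263 and 28.2 TPM, and the 4 leukocyte markers to at most 0.851 TPM. The fibroblast sum was highest in SKOV3 daughter cells, where COL1A1 had 16.3, LUM 5.56 and PDGFRB 5.35 TPM. KRT19, EPCAM and CDH1 were near 0 in Hey, at most 3.6 TPM. Of the 3 ovarian markers PAX8 lay between 54.7 and 136 TPM over both lines. The others were low in all libraries, WT1 at most 4.1 TPM and MUC16 at most 1.59 TPM. ERBB2, which SKOV3 cells carry in many copies, ran from 8.2 to 14.1 TPM in Hey and from 1127 to 1778 TPM in SKOV3.

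Ribosomes make protein in all cells and consist of a small subunit, which reads the message, and a large subunit, which joins the amino acids. Each subunit is ribosomal RNA with a set of proteins, most of which are needed in equal numbers, and the P-stalk of the large subunit recruits the translation factors. Most ribosomal protein messages begin with a C and a run of pyrimidines, the 5′ terminal oligopyrimidine (TOP) motif, through which mTOR and LARP1 govern their translation. Several paralogs differ from this pattern: RPS27L is a p53 target, and RPL22 represses its paralog RPL22L1.

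The transcription starts listed by RefSeq were read for this motif, since it is the feature that the family shares at the sequence level. A C at the first base and at least 4 further C or T on the sense strand counted as a TOP start, at any start listed for the gene. Of the 85 members 68 had a start in the RefSeq table, and 47 of these (69.1%) had the run, against 1404 of 27305 genes (5.14%). Without the paralogs the share was 46 of 62 (74.2%). The following windows are on GRCh38.p14, from 10 bases before the start to 20 bases from it on, 5′ to 3′, with the pyrimidine run in capitals. They are shown because these 8 genes, among them 2 pairs of a parent gene and its paralog, carry the contrasts described below.
RPL22 (chr1:6199576-6199605, minus strand): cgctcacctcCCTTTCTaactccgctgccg
RPL22L1 (chr3:170870176-170870205, minus strand): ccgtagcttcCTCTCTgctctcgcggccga
RPS27 (chr1:153990752-153990781, plus strand): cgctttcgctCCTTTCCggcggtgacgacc
RPS27L (chr15:63157458-63157487, minus strand): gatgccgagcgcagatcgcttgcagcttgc
RPLP1 (chr15:69452808-69452837, plus strand): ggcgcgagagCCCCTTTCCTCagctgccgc
RPL28 (chr19:55385922-55385951, plus strand): cctcgccttcCTCTTTCCgtctcaggtcgc
RPL4 (chr15:66504836-66504865, minus strand): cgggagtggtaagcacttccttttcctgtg
RPS28 (chr19:8321486-8321515, plus strand): gaagcacgtgactcctctccgccagaccgc
RPL22 and RPL22L1 both had the run, while RPS27 had it and RPS27L did not. No run in a window says only that these letters are not at that listed start.

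Ribosomal protein transcripts made up a larger part of the pool in Hey than in SKOV3 in all 3 states. Parental Hey cells gave 26.4% of their TPM to the 85 genes, PGCCs of that line 21.2% and its daughter cells 21.4%. The SKOV3 shares were 12.4% before treatment, 14.2% for PGCCs and 9.93% for daughter cells. The share was thus highest in parental cells of Hey and in PGCCs of SKOV3. With mitochondrial genes left out of the total the Hey shares were 27.1%, 24.2% and 23.2% and the SKOV3 shares 13.6%, 15.4% and 11.7%, in the same order within SKOV3 but with daughter cells lowest in Hey. Whether a lower share reflects fewer cells of one kind or less RNA per cell cannot be told apart in bulk RNA.

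**Figure D1:**
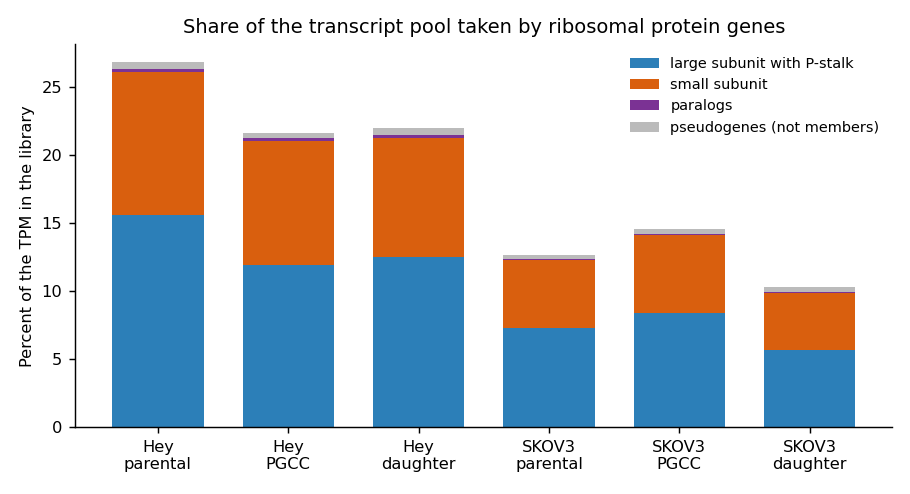
Percent of the TPM of each library (bars, 1 library per condition) taken by genes of the large subunit with the P-stalk, the small subunit, the paralogs and, above the members, pseudogenes. Hey bars reach 26.4% in parental cells and SKOV3 bars 14.2% in PGCCs for the 85 members.

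Many members lay among the most abundant transcripts of the cell. Of the 100 genes with the highest TPM, between 37 (SKOV3 parental cells) and 61 (Hey parental cells) were members. The median of the 77 genes without paralogs was 3028 TPM for parental, 2250 for PGCC and 2375 for daughter cells of Hey. For SKOV3 it was 1177, 1437 and 1075 TPM. The order of the 77 levels was alike between libraries, with a Spearman correlation from 0.744 to 0.905 over the 15 pairs of libraries, across genes that are not independent.

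At the top stood RPS18 (9421 TPM in Hey parental cells), RPL41 (8558 TPM in Hey parental cells), RPS27 (8277 TPM in Hey PGCCs) and RPL39 (7145 TPM in Hey daughter cells). RPL39 and RPL41 are short proteins of the large subunit. RPL41 was the highest of the 77 genes in each SKOV3 library, with up to 6263 TPM in PGCCs. At the bottom of the 77 genes were RPL14 and RPS28. RPL14, a large subunit gene, had 49.4, 106 and 38.8 TPM in Hey parental, PGCC and daughter cells and 23.7, 23.2 and 17.6 TPM in SKOV3. RPS28, a small subunit gene, had 95.2, 67.7 and 52.3 TPM in Hey and 33.2, 86.2 and 35.1 TPM in SKOV3. Neither exceeded 106 TPM in any library. Of the paralogs, RPL10L was listed at 0 in all 6 libraries and RPL3L, known from muscle, did not exceed 0.151 TPM, so that 83 members reached a mean of 1 TPM.

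**Figure D2:**
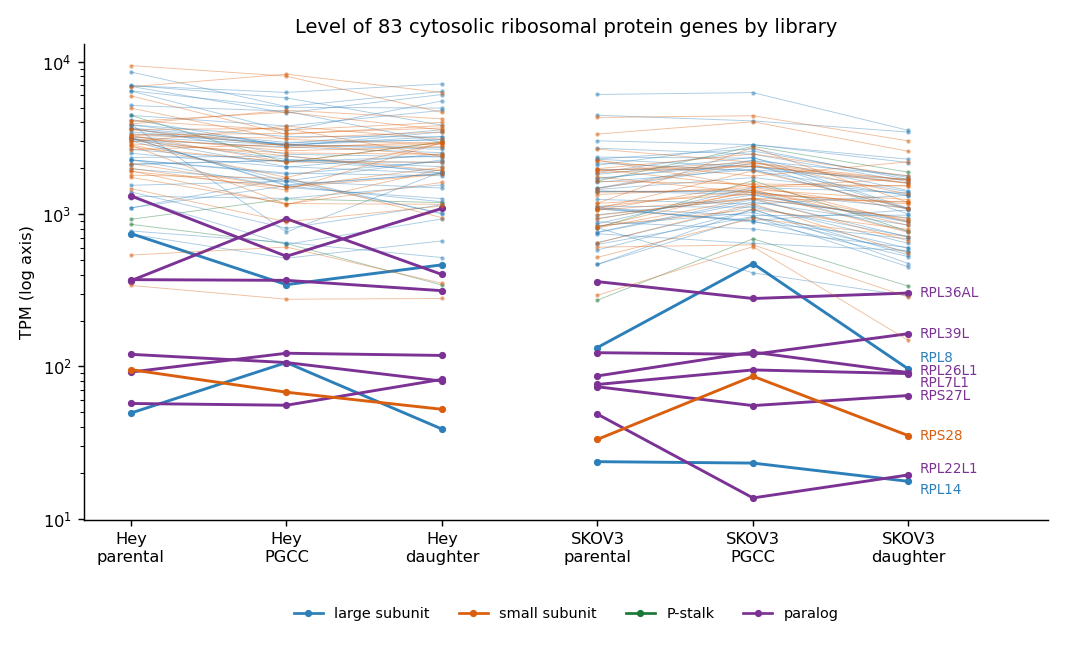
TPM (log axis) of the 83 members that reach a mean of 1 TPM, 1 point per library, joined within each cell line; named genes are drawn thick. RPL22L1 goes from 1317 to 528 and 1088 TPM in Hey and stays at or below 48.6 TPM in SKOV3.

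Between the untreated lines the members were lower in SKOV3 nearly throughout. Differences are of log2(TPM + 1), where 1 is 2-fold. The median member was 1.09 lower in SKOV3 parental than in Hey parental cells, with all genes at 0.29. Of the 85 members 79 were lower and 4 higher in SKOV3. At least 2-fold lower were 48 members, a call made for 11.5% of the 14988 genes whose mean reached 1 TPM (called all genes here), and 1 member was at least 2-fold higher, a call made for 24.2% of those genes. With the trend in GC content and length described below taken out, the median was -1.52 and 68 of 83 were at least 2-fold lower, beside 15.8% of the 13348 genes with a known GC content. RPL22L1 differed most (-4.73), with 1317 TPM in Hey and 48.6 TPM in SKOV3. Among those that followed were RPL8 (-2.48), RPS27L (-2.30) and RPL13A (-2.27). RPL39L, a paralog best known from germ cells, was the exception, with 57.1 TPM in Hey and 123 TPM in SKOV3 (1.09). With the trend subtracted it was at 0.67, under 2-fold. The lines differ in origin and medium, and these cannot be told apart here.

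In Hey, most members were lower in PGCCs than in parental cells. The median difference was -0.29, with all genes at 0.00, and 65 members were lower and 19 higher. At least 2-fold lower were 8 members, beside 5.22% of all genes, and at least 2-fold higher were 2, beside 7.67% of all genes. The middle 50% of the members lay between -0.58 and -0.04. Mitochondrial genes took 2.64% of the TPM in the parental library and 12.3% in the PGCC library. Without them the members had a median of -0.12, with all genes at 0.12. At least 2-fold lower were then 3 members, a count given without its share over all genes. The median was -0.30 in the large and in the small subunit.

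RPL4, a large subunit protein that lines the exit tunnel, had the lowest value (-2.35), with 3884, 762 and 1896 TPM in parental, PGCC and daughter cells of Hey. In SKOV3 it had 862, 1495 and 1383 TPM, so PGCCs were its lowest state in Hey and its highest in SKOV3. The next were RPL22L1 (-1.32), RPS9 (-1.29), RPL8 (-1.11) and RPL10A (-1.05), and RPL3, RPL28 and RPLP0 were each at -1.02. On the other side stood RPS27L (1.35), with 365, 932 and 401 TPM in the same order. RPL14 (1.08), RPL11 (0.65), RPL36A (0.48) and RPLP2 (0.44) followed. RPL11, which binds MDM2 when ribosome assembly is disturbed, stayed under the 2-fold threshold.

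In SKOV3, the members were on balance higher in PGCCs. The median difference was 0.26, with all genes at 0.02, and 55 members were higher and 29 lower. At least 2-fold higher were 8 members, beside 9.94% of all genes, and RPL22L1 alone was at least 2-fold lower, beside 4.96% of all genes. Among the 8 were RPL8 (1.82), RPS28 (1.35), RPLP1 (1.33), RPS2 (1.22), RPL28 (1.21), RPS15 (1.06) and RPLP2 (1.03). RPL22L1 (-1.76) had 48.6, 13.7 and 19.4 TPM in parental, PGCC and daughter cells. RPL36A (-0.98), RPS24 (-0.58), RPS27L (-0.41) and RPS25 (-0.38) came next. RPS27L, the highest member in Hey PGCCs, was thus among the lowest in SKOV3 as deposited, at 73.5, 55.3 and 64.4 TPM. With the trend in GC content and length described below subtracted, RPS27L was at -0.14 in SKOV3 PGCCs.

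The SKOV3 PGCC library differed from its parental library along GC content, and the members followed this trend. Over the 13348 genes with a known GC content the SKOV3 difference had a Spearman correlation with GC of 0.722, and over the 83 members one of 0.751. In Hey these were -0.0436 and -0.263. The points share libraries and base composition, and no p is given. The members spanned a GC content of 39.9% to 63.6%, with a median of 47.5%, against 47.6% for all genes.

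Split by GC content, the 28 members from 39.9% to 45.2% had a median SKOV3 difference of -0.11, the next 27 of 0.14, and the 28 from 51% to 63.6% of 0.69. The last group held 7 of the 8 members at 2-fold higher, and RPLP1 (47.4% GC) was the exception. RPL8 at 63.6% GC was both the member richest in GC and the highest in SKOV3, and RPL22L1 at 39.9% was both the poorest in GC and the lowest. In Hey the 3 medians were -0.25, -0.21 and -0.48.

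**Figure D3:**
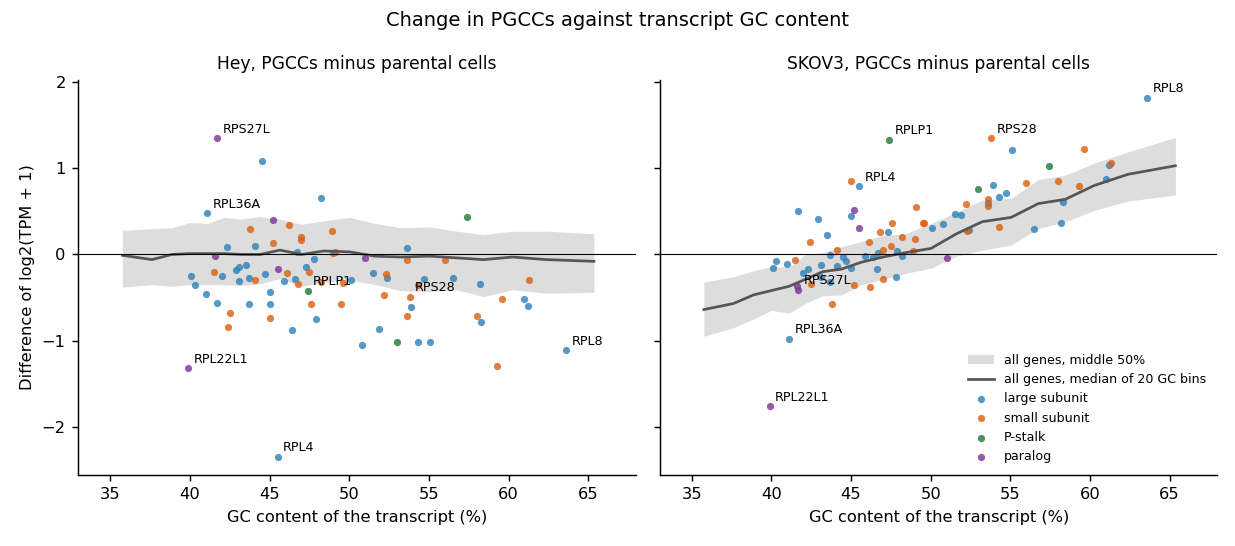
Difference of log2(TPM + 1) between PGCCs and parental cells against the GC content of the transcript in percent for members (points, 1 library per condition) and for all genes (grey band, middle 50%; line, median of 20 GC bins). In SKOV3 the bin medians run from -0.64 to 1.03 and the members lie along them, with RPL8 at 1.82 and RPL22L1 at -1.76.

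With the lowess trend in GC content and transcript length subtracted, the spread of the members in SKOV3 narrowed while their centre moved little. Their SD went from 0.54 to 0.38 and their median from 0.26 to 0.20, and 67 of 83 were then above 0. The GC groups then had medians of 0.18, 0.17 and 0.28. At least 2-fold higher were then 3 members, RPLP1 (1.44), RPS3 (1.06) and RPS28 (1.05), beside 2.23% of the 13348 genes. With the GC trend alone subtracted RPLP1 (1.36) remained, and RPS3 and RPS28 were at 0.98. Length was that of the canonical transcript, from 295 to 7573 bases in the members. Subtracting both trends moved the members' Spearman correlation with length from 0.0723 to 0.392, so these calls depend on the length used. RPL22L1 remained 2-fold lower (-1.23), beside 2.58% of them. RPL8 was at 0.90 and RPL28 at 0.74. In Hey the same step moved the median from -0.29 to -0.43, with 72 of 83 below 0. The part of library preparation and of the conflicting day in the labels of this library was not tested.

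The lines went opposite ways for the larger number of members in PGCCs. Against parental cells 46 members were lower in Hey and higher in SKOV3, 19 were lower in both, 10 were higher in Hey and lower in SKOV3, and 9 were higher in both. With the trend subtracted, 61 of 83 were lower in Hey and higher in SKOV3. Across the members the Pearson correlation of the lines was -0.343 and the Spearman correlation -0.448, and -0.24 and -0.275 with the trend subtracted. RPL22L1 was the one member at 2-fold in the same direction in both lines. Counts across both lines, here and below, were taken for members only and not over all genes. Whether they are particular to the family was not tested.

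RPL8 and RPL28, both of the large subunit, were at 2-fold in opposite directions. RPL8 had 744, 344 and 464 TPM in Hey parental, PGCC and daughter cells and 133, 473 and 96 TPM in SKOV3. RPL28 had 1283, 632 and 928 TPM in Hey and 467, 1079 and 473 TPM in SKOV3. In both genes PGCCs were lowest in Hey and highest in SKOV3, and daughter cells of SKOV3 were near or below the parental level. With the trend subtracted RPL8 was at -1.09 in Hey and 0.90 in SKOV3, and RPL28 at -0.87 and 0.74. The signs held, but of these values the one of RPL8 in Hey alone stayed past 2-fold.

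**Figure D4:**
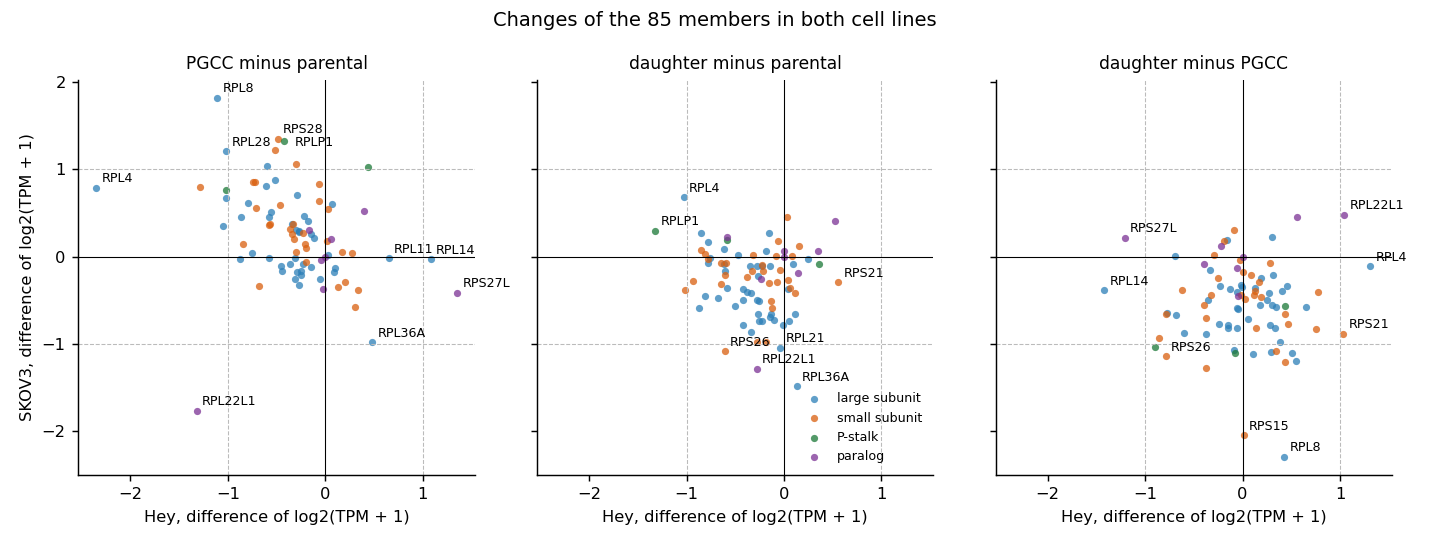
Difference of log2(TPM + 1) in Hey (horizontal axis) and SKOV3 (vertical axis) for the 85 members in 3 comparisons, 1 library per condition; dashed lines mark 2-fold. For PGCCs minus parental cells 46 members lie in the upper left with lower values in Hey and higher ones in SKOV3, and as deposited 51 lie in the lower left for daughter minus parental cells.

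As deposited, daughter cells had lower values than parental cells for most members in both lines. In Hey the median difference was -0.27, with all genes at 0.05, and in SKOV3 it was -0.22, with all genes at 0.15, but 0.02 in SKOV3 after quantile normalization of the libraries. In Hey 66 members were lower and 17 higher, in SKOV3 63 and 21, and 51 were lower in both lines. This last count was not taken over all genes. No member was at least 2-fold higher in either line, a call made for 6.31% of all genes in Hey and 15.1% in SKOV3. At least 2-fold lower were 3 members in Hey, beside 3.73% of all genes, and 4 in SKOV3, beside 6.34%. These comparisons did not use the SKOV3 PGCC library, and the SKOV3 difference had a Spearman correlation with GC of 0.152 over the 13348 genes with a known GC content.

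The 3 members in Hey were RPLP1 (-1.32), RPL4 (-1.03) and RPS18 (-1.02), a small subunit protein of the head. The 4 in SKOV3 were RPL36A (-1.48), RPL22L1 (-1.28), RPS26 (-1.08) and RPL21 (-1.04). RPL36A had 813, 411 and 290 TPM in parental, PGCC and daughter cells of SKOV3, but 1098, 1532 and 1203 TPM in Hey. RPS26 had 538, 607 and 351 TPM in Hey and 606, 628 and 285 TPM in SKOV3, and daughter cells were its lowest state in both lines. None of the 7 was at 2-fold in both lines, an overlap that was not counted over all genes. The highest members were RPS21 (0.56), RPL39L (0.52), RPLP2 (0.36), RPL26L1 (0.35) and RPL23A (0.25) in Hey, and RPL4 (0.68), RPS3 (0.45), RPL39L (0.41) and RPLP1 (0.30) in SKOV3.

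In SKOV3 most members were lower in daughter cells than in PGCCs. The median was -0.50, with all genes at 0.12, and 74 members were lower in daughter cells and 10 higher. At least 2-fold lower were 13, beside 9.25% of all genes, and none was 2-fold higher, beside 14.6%. The median was -0.17 after quantile normalization, and the 13 became 5 with it and 6 without mitochondrial genes. Both counts are given without the share over all genes. The largest were RPL8 (-2.29), RPS15 (-2.04), RPS28 (-1.27), RPS2 (-1.20) and RPL28 (-1.19), which were also among those highest in the PGCC library that both comparisons share. This difference had a Spearman correlation with GC of -0.456 over the 13348 genes and -0.65 over 83 members. With the trend subtracted the median was -0.51 and 10 of 83 members were 2-fold lower, beside 7.25% of the 13348 genes. RPL8 (-1.60) and RPS15 (-1.28) were among the 10. The highest were RPL22L1 (0.48), RPL39L (0.45), RPS3A (0.31), RPL23A (0.23) and RPS27L (0.22).

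In Hey the median between daughter cells and PGCCs was 0.00, with all genes at 0.03, and 41 members were higher and 43 lower. At least 2-fold higher were RPL4 (1.31), RPL22L1 (1.04) and RPS21 (1.03), beside 9.95% of all genes. At least 2-fold lower were RPL14 (-1.42) and RPS27L (-1.21), beside 8.13%. RPLP1 (-0.90), RPS10 (-0.86) and RPS18 (-0.79) followed on that side, and RPS3 (0.77) and RPS16 (0.75) on the other. RPL4, RPL22L1, RPL14 and RPS27L were also among the members furthest from parental cells in the Hey PGCC library, which both comparisons share. Their daughter values lay closer to the parental level, though RPL4 was still at -1.03 against parental cells. Whether these genes returned toward that level was not tested.

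The 3 P-stalk genes did not move as one in Hey. RPLP0, the base of the stalk, had 4437, 2183 and 2969 TPM in Hey parental, PGCC and daughter cells and 1644, 2781 and 1881 TPM in SKOV3. RPLP1 had 856, 640 and 342 TPM in Hey and 272, 688 and 336 TPM in SKOV3. RPLP2, which pairs with RPLP1 on the stalk, had 924, 1257 and 1189 TPM in Hey and 812, 1657 and 770 TPM in SKOV3. In SKOV3 PGCCs were the highest state for all 3 genes, whereas in Hey parental cells were highest for RPLP0 and RPLP1 and lowest for RPLP2.

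Paralogs and parent genes were set side by side. RPL22 had 774, 650 and 518 TPM in Hey and 742, 641 and 576 TPM in SKOV3, so its level was close in the parental lines (-0.06) where that of RPL22L1 differed by -4.73 on the log2 scale. RPS27 had 6841, 8277 and 6268 TPM in Hey and 4302, 4418 and 3018 TPM in SKOV3. RPS27L was higher in PGCCs than in both other states in Hey, and as deposited the lowest of the 3 states in SKOV3 was its PGCC library. With the trend subtracted its SKOV3 difference from parental cells was -0.14 in PGCCs and -0.36 in daughter cells. RPL36AL lay between 279 and 371 TPM and RPL26L1 between 86.6 and 124 TPM in all libraries, with no 2-fold difference. RPL7L1, which takes part in ribosome assembly, lay between 76.1 and 120 TPM. RPL39L was highest in daughter cells of both lines, at 82.2 TPM in Hey and 164 TPM in SKOV3, short of 2-fold over parental cells.

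Members with and without a TOP start had close medians in PGCCs. In Hey PGCCs against parental cells the 46 core genes with the run had a median of -0.28 and the 16 without it -0.32, and in SKOV3 these were 0.27 and 0.26. In SKOV3 daughter cells against parental cells the medians were -0.34 and -0.10. In Hey daughter cells they were -0.22 and -0.37, in the opposite order.

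Other genes of the translation machinery were read from lists of the same kind. The 21 other TOP mRNAs, which encode elongation and initiation factors and similar proteins, had a median of -0.56 in Hey PGCCs against parental cells, with 19 lower, and -0.09 in SKOV3, with 12 lower. EEF1A1, the main elongation factor, had 20251, 12969 and 11246 TPM in Hey and 7450, 8639 and 7947 TPM in SKOV3. The 47 ribosome biogenesis genes had a median of -0.43 in Hey PGCCs, with 39 lower, and of 0.18 in SKOV3, with 28 higher. In Hey daughter cells against PGCCs their median was 0.52, with 36 higher, where the ribosomal protein genes had 0.00. FBL, the methyltransferase of ribosomal RNA, had 324, 114 and 462 TPM in Hey, and 242, 325 and 308 TPM in SKOV3. FAU was lower in Hey PGCCs (-0.38) and higher in SKOV3 PGCCs (1.09) than in parental cells. With the GC and length trend subtracted FAU was at -0.53 and 0.52. In SKOV3 PGCCs the other TOP mRNAs then had a median of 0.03, with 10 lower, and the biogenesis genes one of 0.15.

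The 78 mitochondrial ribosomal protein genes, which serve the ribosomes inside mitochondria, had PGCC medians of -0.11 for Hey and -0.04 for SKOV3. In daughter against parental cells they had 0.16 in Hey and -0.32 in SKOV3, while the cytosolic set was below 0 in both as deposited. The 6 snoRNA host RNAs, noncoding RNAs that carry the TOP motif, had PGCC medians of 0.21 for Hey and -0.49 for SKOV3, the reverse of the signs of the ribosomal protein genes. In daughter against parental cells they had -0.64 and -0.85. The 6 regulators, among them MYC and LARP1, had PGCC medians of -0.59 for Hey and 0.53 for SKOV3, and -0.07 in SKOV3 with the trend subtracted. The same step gave SKOV3 PGCC medians of 0.03 for the mitochondrial set and -0.33 for the snoRNA host RNAs.

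**Figure D5:**
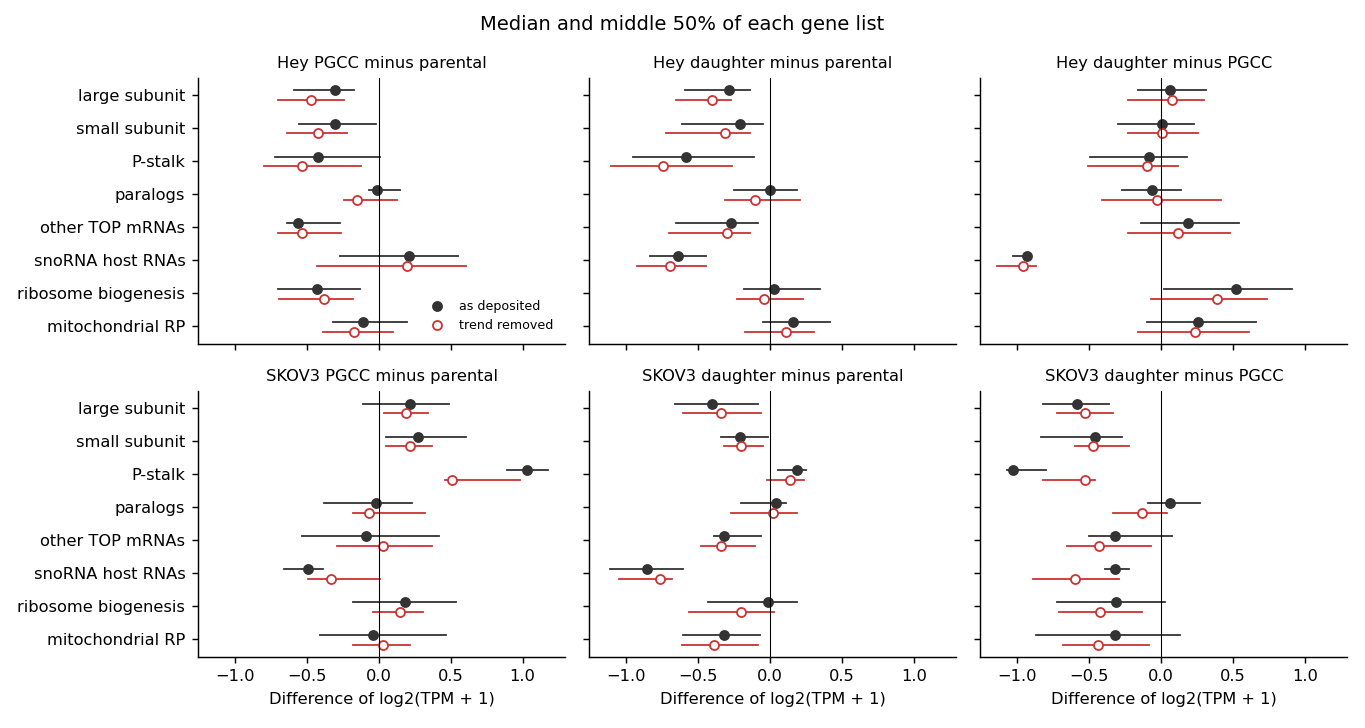
Median (points) and middle 50% of the genes (bars) of each list for 6 comparisons of 1 library with 1 library, in log2(TPM + 1), as deposited (filled) and with the GC and length trend subtracted (open). For PGCCs minus parental cells the small subunit stands at -0.30 in Hey and 0.27 in SKOV3.

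As a second approach, state and cell line were fitted together with limma. The spread of a gene is the disagreement between the lines (2 residual degrees of freedom). limma moderated it toward the spread of all tested genes at a like level. SE and p therefore do not measure the disagreement of the lines for that gene alone. No member of the 83 tested had an adjusted p under 0.05 in any of the 3 comparisons of states. Over all genes such calls made up 0.02% for PGCCs against parental cells, 0.0133% for daughter against parental cells and 0% for daughter cells against PGCCs. At an unadjusted p under 0.05 there were 1, 1 and 2 members (1.2%, 1.2% and 2.41%), below the 2.73%, 3.39% and 5.06% of all genes. These were RPL22L1 for PGCCs (-1.54, SE 0.389, unadjusted p = 0.005, limma adjusted p = 1), RPS26 for daughter against parental cells (-0.85, SE 0.349), and RPS26 (-0.96) and RPS10 (-0.89) for daughter cells against PGCCs, where the smallest adjusted p of a member was 0.908.

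Ribosomal protein genes have many near-identical processed pseudogenes, and reads can be split between the copies. The table lists 1241 such symbols for 78 parent genes, 400 of them with a TPM above 0, and they took between 0.278% and 0.528% of the TPM. RPL23AP42 was the largest, with 2468, 1388 and 2885 TPM in Hey and 1287, 1870 and 2006 TPM in SKOV3, in each library above its parent RPL23A (1310, 1266 and 1553 TPM, and 1087, 908 and 1063 TPM). RPS28P7 also lay above its parent RPS28 in all 6 libraries, at 210, 294 and 252 TPM in Hey and 184, 362 and 130 TPM in SKOV3. The levels of RPL23A, RPS28 and RPL21, whose copy RPL21P16 had up to 1167 TPM, are therefore uncertain. Adding the pseudogenes to their parents left the medians and counts of the family within their tolerance in all comparisons.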

How the data were processed

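RNA from 6 cultures was sequenced. Per the labels, the authors trimmed reads with fastp and quantified them on hg38 with Salmon 0.14.1, and deposited TPM per gene symbol. Annotation release, summing to symbols, bias options and library selection are not given in the sources used here. TPM was used as deposited; members that passed or failed the mean TPM of 1 are all accounted for. Differences of log2(TPM + 1) within a line were called at 2-fold, with no test. limma 3.58.1 (R 4.3.3; genes whose mean reached 1 TPM; terms state and cell line; intensity trend; Benjamini-Hochberg adjustment) was the second approach. GC content and length of canonical transcripts came from GENCODE release 44, joined by symbol. Their trend was removed by lowess (fraction 0.3, 2 passes, statsmodels 0.14.6). Steps were tested on simulated data with planted changes larger than any family median given here, so recovery of smaller changes was not tested. Named are the members with the 5 largest and 5 smallest differences, P-stalk genes, paralogs with parents, members at 2-fold in both lines, and list genes, some of which are not reported here; RPL14, RPS28, RPS10, the highest members and pseudogenes were named after their values were seen. Members and lists were chosen with earlier results of these data known.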

Additional observations from a re-analysis of the deposited data

Results flagged for a closer look

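The PGCC difference from parental cells had opposite signs in the lines for the family and for 2 of its members at 2-fold. The median of the members was -0.29 in Hey and 0.26 in SKOV3. RPL8 was at -1.11 in Hey and 1.82 in SKOV3, and RPL28 at -1.02 and 1.21. The difference was not tested, since each condition has 1 library. Subtracting the trend in GC and length gave -0.43 and 0.20 for the median, -1.09 and 0.90 for RPL8 and -0.87 and 0.74 for RPL28. No member was then at 2-fold in opposite directions. Genes at 2-fold in opposite directions were counted for members only and not over all genes.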

How the results depend on the processing

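The median for SKOV3 daughter minus parental cells was -0.22 as deposited, -0.44 with median-ratio scaling and 0.02 with quantile normalization, a change of sign. These scalings also moved the median of all genes there, from 0.15 to -0.02 and -0.04. For SKOV3 daughter cells minus PGCCs the median was -0.17 with quantile normalization. For SKOV3 minus Hey parental cells it was -1.09 as deposited, -1.41 with median-ratio scaling and -0.74 with quantile normalization. Subtracting the GC and length trend gave -1.52 there, -1.55 when fitted without the members, and the GC trend alone gave -1.4. The share in SKOV3 daughter cells was 11.7% without mitochondrial genes. Leaving these out moved the median of all genes to 0.12 in Hey PGCCs minus parental cells, where the members were at -0.12. The causes were not tested. The other medians moved by at most 0.2, the tolerance used.

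Counts of members past the threshold moved more. They are given here without the share over all genes at the same setting, so they show only how the calls depend on processing. The 8 members higher in SKOV3 PGCCs became 5 with median-ratio scaling, 3 with the GC and length trend removed, also when fitted without the members, 1 with the GC trend alone and 22 at 1.5-fold. The 8 lower in Hey PGCCs became 3 without mitochondrial genes, 5 with the GC trend alone and 19 at 1.5-fold. For SKOV3 daughter cells minus PGCCs the 13 became 6 without mitochondrial genes, 5 with quantile normalization and 35 at 1.5-fold. The 3 lower in Hey daughter minus parental cells ranged from 1 to 22, the 4 in SKOV3 from 2 to 19. In Hey daughter cells minus PGCCs the 3 higher ranged from 1 to 6 and the 2 lower from 2 to 11. Chosen after seeing the data, GC content and length of the median transcript gave medians of -0.32 and 0.15 in Hey and SKOV3 PGCCs, with 4 lower and 2 higher. limma gave 0 members at an adjusted p under 0.05 in all settings run, with at most 3 members at an unadjusted p under 0.05, and also for daughter against parental cells without the SKOV3 PGCC library, an alternative added after seeing the data (1 at an unadjusted p under 0.05). The labels give no replicate numbers; the cell line term of limma paired the states by line, and without it limma also gave 0. Leaving out either library of a comparison leaves none. TPM values carry no read counts, so counting error is not given.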
